A study of Canis lupus familiaris with 186 samples.

Results

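The genes described here are 40 genes of the skeletal muscle sarcomere and of the machinery that serves it, chosen by gene symbol from the 37952 genes of the deposited count table. All 40 were found, each once. The study profiled mRNA of primary appendicular osteosarcomas from 186 pet dogs enrolled in 2 adjuvant trials, COTC021 and COTC022, with 93 tumors each. All tumors were taken before treatment from dogs without macroscopic metastasis, and the dogs then had limb amputation and received carboplatin with or without rapamycin. The study listed each tumor in the favorable prognosis (FP, n = 58) or poor prognosis (PP, n = 128) cluster of an earlier immune gene signature, GS-1, with the time to recurrence or spread (disease-free interval, DFI) and to death (overall survival, OSv). Each trial held 29 FP and 64 PP tumors. The sample labels used here call each sample a primary osteosarcoma and give no treatment arm, so the arm enters no comparison. The study's arms are as large as its trials, so trial and arm may coincide and cannot be told apart here.

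Striated muscle contracts when myosin heavy chains of the thick filament pull on actin of the thin filament inside the sarcomere, the repeating unit between Z-discs. Calcium released through the ryanodine receptor binds troponin, which shifts tropomyosin and opens actin to myosin, and the calcium pump of the sarcoplasmic reticulum ends the contraction. Fast and slow fibers use different paralogs of most of these proteins, and an embryonic myosin appears in developing and regenerating fibers.

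Library totals ranged from 6587631 to 27420857 counts, with a median of 10797162. The column names of 50 libraries were spelled in another style. Their totals had a median of 19440449 counts, while that of the remaining 136 was 9851681, and they came from 13 FP and 37 PP tumors. Levels are given as CPM, the counts of a gene per 1000000 counts of its library. CPM is not corrected for gene length, so levels, and shares or ratios that join several genes, are read between tumors and not between genes. In bulk tissue, fewer muscle fibers and less RNA per fiber cannot be told apart.

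Most tumors held a low level of these transcripts, and a few held a great deal. The 40 genes took 0.0117% of all counts in the lowest tumor, 0.0578% in the median tumor and 16.6% in the highest, COTC022 tumor 68, a PP tumor. At least 0.1% of counts was reached in 40 tumors, 0.5% in 12, 1% in 7 and 5% in 1. The distribution therefore had a long upper tail, in which 1 tumor stood far above the next, COTC021 tumor 45, an FP tumor at 4.77%. The medians of the groups lay close together, at 0.0585% in FP and 0.0578% in PP, and at 0.0526% in COTC021 and 0.0614% in COTC022. TPM2 and CA3 took the largest median parts of these counts. Without both, the medians were 0.0196% in FP and 0.0148% in PP, and 0.0159% in COTC021 and 0.0156% in COTC022.

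A tumor was said to hold muscle signal where at least 20 of the 40 genes were at 1 CPM or more. This was so in 137 of 186 tumors, or 73.7% (95% Clopper-Pearson interval 66.7 to 79.8, which covers counting error only). The share was 81.0% in FP (47 of 58, 68.6 to 90.1) and 70.3% in PP (90 of 128, 61.6 to 78.1), and the intervals overlapped. By trial, 69.9% of COTC021 and 77.4% of COTC022 tumors held it, and by library style 64.0% of the 50 and 77.2% of the 136. The share depended on the threshold, with 84.9% at 0.5 CPM (86.2% of FP and 84.4% of PP) and 24.7% at 5 CPM (27.6% and 23.4%). Where 75% of the genes had to reach 1 CPM it was 42.5%, with 56.9% of FP (33 of 58, 43.2 to 69.8) and 35.9% of PP (46 of 128, 27.7 to 44.9). All 40 genes were at 1 CPM or more in 18 tumors, and the lowest tumor had 9.

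**Figure D1:**
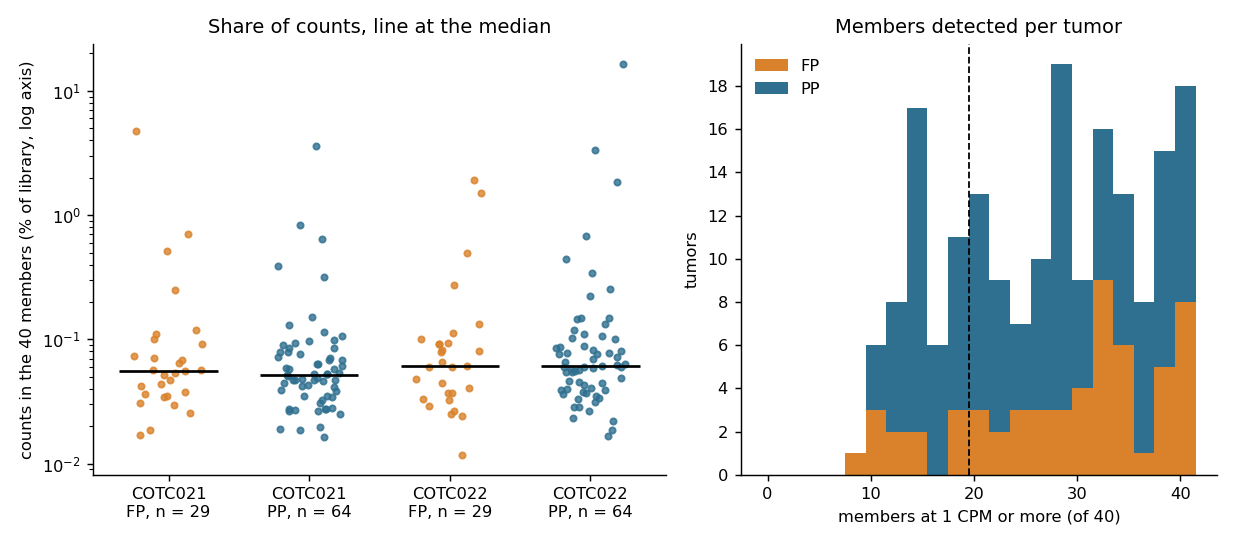
Left, counts in the 40 genes as a percentage of the library on a log axis, 1 point per tumor, by trial and GS-1 cluster, with a line at the median, and right, how many of the 40 genes were at 1 CPM or more in each tumor, FP and PP stacked in bins of 2 genes, with a dashed line at the threshold of 20. All medians lie under 0.1%, while the highest tumor reaches 16.6%, and 18 tumors reach all 40 genes.

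The genes rose and fell together across tumors. Pearson's r between each gene's log2(CPM + 2) and the mean of the other 39 had a median of 0.931 over 186 tumors, with 35 genes over 0.8, and all 780 pairs of genes correlated positively. Spearman's rho, which gives the highest tumors no extra weight, had a median of 0.783. The median r was 0.926 within COTC021, 0.932 within COTC022, 0.952 within the 50 libraries and 0.916 within the other 136. The tumors share library preparation and sequencing, and these correlations are descriptions. Among the 30 genes that passed the filter on low counts, the median SD of log2(CPM + 2) across tumors was 1.83, against 0.542 over all 13422 genes kept. The 10 genes that did not pass were MYH3, MYL3, ACTN3, MYOM2, MYOT, CASQ1, CACNA1S, LDB3, XIRP2 and SMPX.

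**Figure D2:**
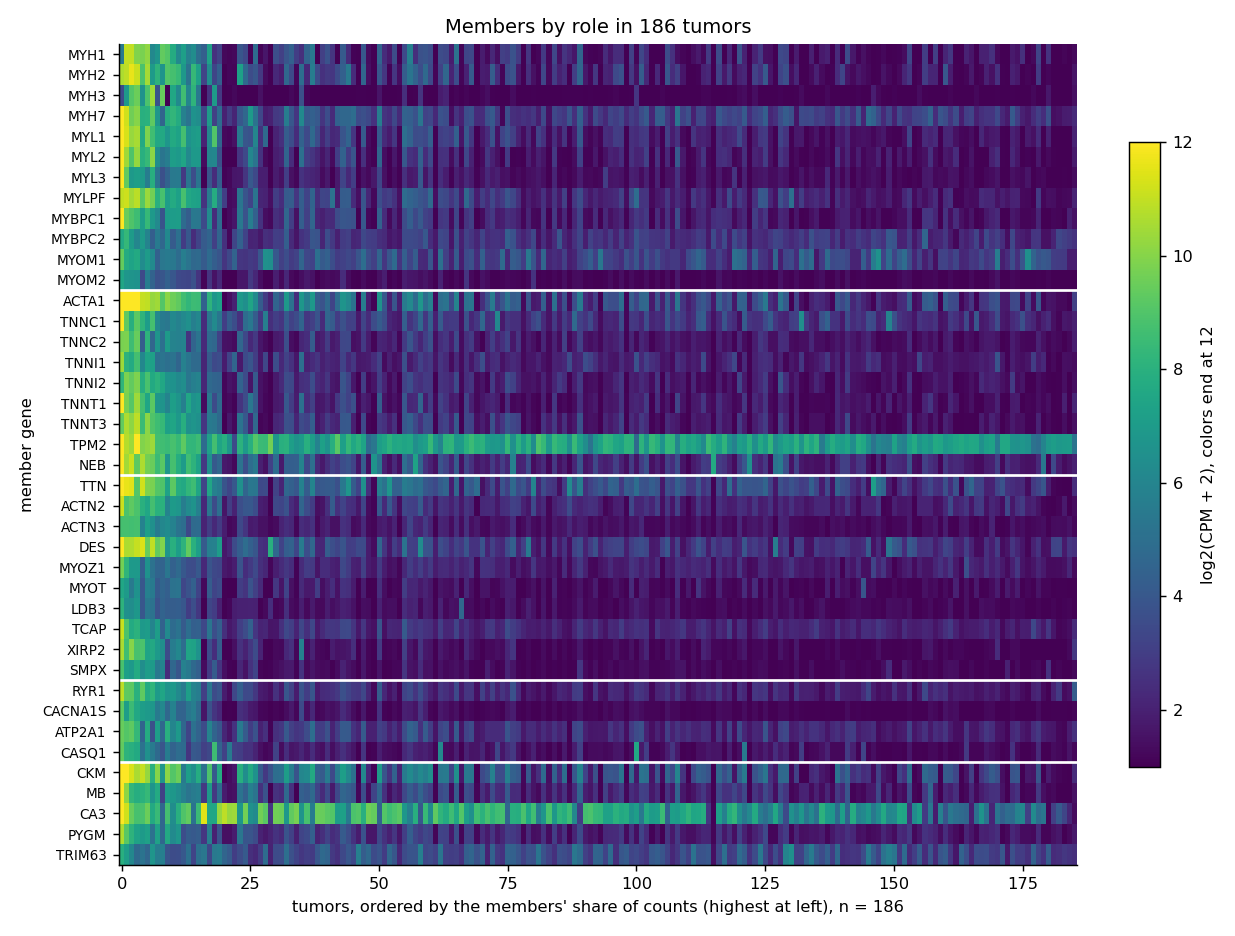
Level of the 40 genes in 186 tumors as log2(CPM + 2), with genes in rows grouped by role from thick filament (top) to metabolism (bottom) and tumors in columns ordered by the share of counts in the 40 genes. Nearly all rows are brightest in the same columns at the left, while TPM2 and CA3 are bright across most tumors.

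Thick filament genes had a low median and a high maximum. MYH7, the slow and cardiac β-myosin heavy chain (chromosome 8, 3782913 to 3802783, build GSD_1.0), ranged from 0.194 to 16520 CPM with a median of 7.94. MYH2 and MYH1, the fast type IIa and IIx heavy chains, ranged from 0 to 3180 CPM (median 2.35) and from 0 to 2048 CPM (median 2.03). They lie side by side on chromosome 5, MYH1 at 34990179 to 35014752 and MYH2 at 35019632 to 35044733, and are close paralogs between which RSEM divides shared reads, so the split between them is uncertain. MYH7 was above 0 in every tumor, MYH1 was at 0 in 36 and MYH2 in 28. Of the light chains, fast MYLPF ranged from 0 to 2257 CPM (median 3.20) and slow MYL2 from 0 to 11760 (median 1.38). Fast MYL1 ranged from 0 to 4752 (median 2.55), and slow MYL3 from 0 to 4050 (median 0.821). MYBPC1 and MYBPC2 encode the slow and fast myosin-binding protein C, and they were at 1 CPM or more in 115 and 179 tumors. MYOM1, a myomesin of the M-band, was at 1 CPM or more in 185 tumors, and MYOM2 in 36.

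Thin filament genes followed the same form. ACTA1, skeletal muscle α-actin (chromosome 4, 10212935 to 10215761), ranged from 0 to 24580 CPM with a median of 10.5. The slow troponin C gene TNNC1 ranged from 0.228 to 4574 CPM (median 4.79), and its fast counterpart TNNC2 from 0 to 910 (median 1.42). The inhibitory troponins were TNNI1 (slow, 0 to 1353, median 2.20) and TNNI2 (fast, 0 to 949, median 1.42). Those that bind tropomyosin were TNNT1 (slow, 0 to 6659, median 1.27) and TNNT3 (fast, 0 to 1937, median 1.56). TNNT1 had the highest correlation with the other 39 genes, at 0.965. NEB, the giant ruler protein nebulin, ranged from 0 to 7148 CPM with a median of 3.24. TPM2, β-tropomyosin, was at 9.18 CPM or more in every tumor, with a median of 163 and a maximum of 7848, and is also made by smooth muscle and fibroblasts.

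Of the Z-disc and cytoskeletal genes, TTN (titin, the molecular spring) and DES (desmin, the intermediate filament that ties Z-discs together) were at 1 CPM or more in 172 and 169 tumors. TCAP, which caps titin at the Z-disc, was so in 170, ACTN2 (α-actinin 2) in 155 and MYOZ1 (calsarcin 2) in 148. ACTN3 (81 tumors), MYOT (myotilin, 73), XIRP2 (56), LDB3 (55) and SMPX (41) were those that did not pass the filter on low counts. Among calcium handling genes, ATP2A1, the fast calcium pump, and RYR1, the release channel, reached 1 CPM in 167 and 151 tumors, CASQ1, the calcium store protein, in 90 and CACNA1S, the voltage sensor, in 41.

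Of the metabolic genes, CKM (muscle creatine kinase) ranged from 0 to 20350 CPM with a median of 12.7. MB (myoglobin) ranged from 0 to 6629 (median 3.27), and PYGM (muscle glycogen phosphorylase) from 0 to 1628 (median 2.47). TRIM63, the ubiquitin ligase MuRF1, ranged from 0.713 to 241 (median 10.3). CA3 (carbonic anhydrase 3) ranged from 0.158 to 4499 (median 142). Of the counts of the 40 genes, TPM2 took a median of 27.6% and CA3 a median of 21.6%, but 4.73% and 2.71% in the highest tumor. Without both, the median share of the library was 0.0157% in place of 0.0578%.

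The 5 genes with an r under 0.8 departed most from the rest. Their r with the other 39 was 0.284 for CA3, 0.451 for TRIM63, 0.611 for TPM2, 0.615 for MYOM1 and 0.781 for MYBPC2. CA3 was also high in tumors in which the other genes made up few counts. In COTC021 tumor 1 it stood at 2866 CPM and made up 90.7% of the counts of the 40 genes, beside 20.3 CPM of ACTA1. In COTC022 tumor 70 it stood at 1899 CPM, with ACTA1 and CKM both at 0 counts. CA3 correlated with a list of 6 osteoblast genes (r = 0.498, rho = 0.378, n = 186). Its r was 0.498 for the matrix protein gene IBSP and 0.459 for the osteoblast factor SP7. It was lower for ALPL (0.384), BGLAP (0.239), RUNX2 (0.234) and COL1A1 (0.234). The r with that list was 0.524 within COTC021, 0.446 within COTC022, 0.699 within FP and 0.328 within PP. Over the 35 genes outside these 5, r with the osteoblast list ran from -0.0731 to 0.137. CA3 is also an adipocyte gene in many mammals, and its r with a list of 6 adipocyte genes was -0.0574, with 0.187 for LPL among them. The part of other cell types in the level of CA3 was not tested. TPM2 had r = 0.409 with a list of 7 smooth muscle and pericyte genes, against a median of 0.268 for the 35 genes. With single genes of that list, the r of TPM2 ran from 0.061 for RGS5 to 0.458 for TAGLN.

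Other genes of the set were high alone in single tumors. DES reached 245 CPM and TPM2 813 CPM in COTC021 tumor 9, where the median of the other 39 genes was 0.262 CPM beside each. NEB reached 212 CPM (2679 counts) in COTC021 tumor 81, in which 10 of 40 genes were at 1 CPM or more. CASQ1 stood at 188 CPM in COTC022 tumor 85, TTN at 141 CPM in COTC021 tumor 10 and MYOM1 at 91.2 CPM in COTC022 tumor 58. Those 3 tumors ranked 101, 147 and 177 of 186 by the share of counts in the 40 genes. The largest such departure in units of its own spread was LDB3 in COTC021 tumor 42, at 24.3 CPM and 8.52 SD above the line fitted to the mean of the other genes. Their source was not tested.

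**Figure D3:**
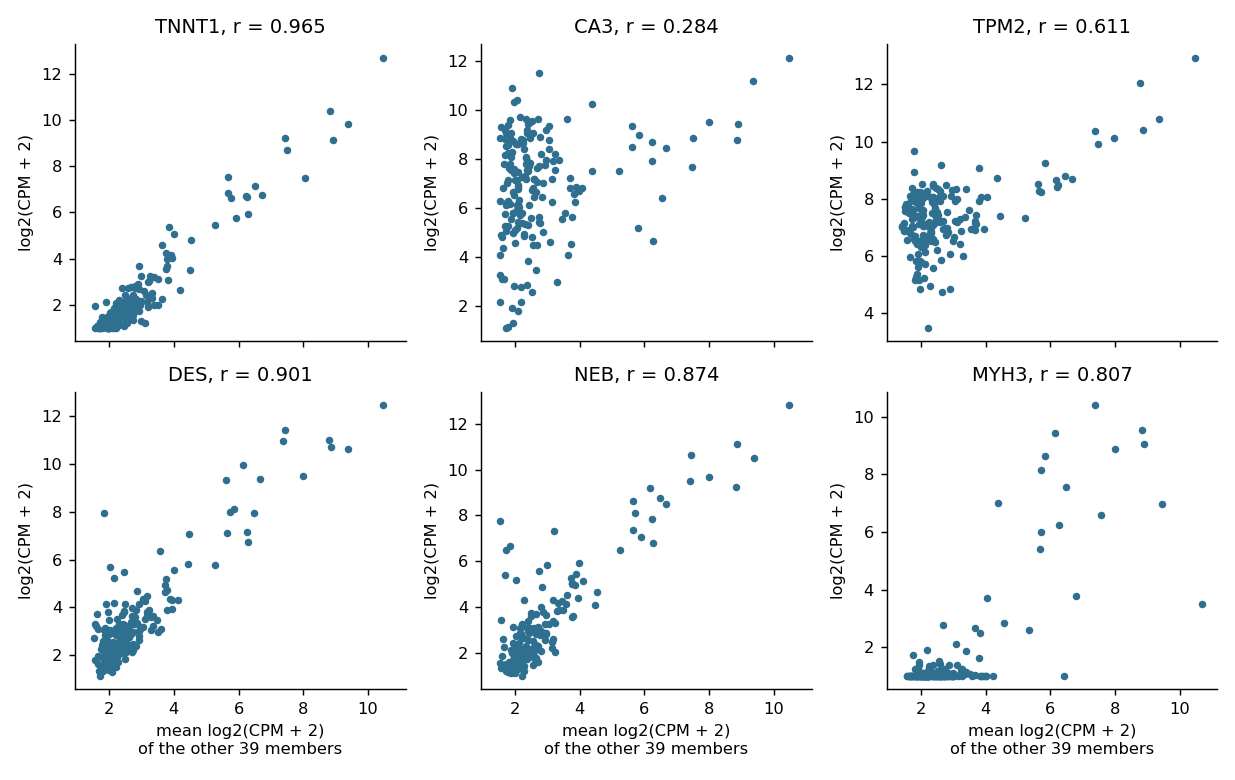
Level of 6 genes against the mean level of the other 39 genes, both as log2(CPM + 2), 1 point per tumor, n = 186. TNNT1 follows the others closely (r = 0.965), CA3 (r = 0.284) and TPM2 (r = 0.611) vary where the others are low, and DES and NEB show single tumors that lie far above the rest, while MYH3 is near 0 CPM in most tumors and high in a few.

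Fast and slow fiber genes were then set against each other within each tumor. The measure was the log2 ratio of the summed CPM of 12 fast genes to that of 6 slow genes, each sum plus 2, and since the sums differ in gene number and CPM is not corrected for length, its zero has no meaning and the ratio is read between tumors. Among the 137 tumors with muscle signal the ratio averaged 0.822 ± 1.13 (SD, n = 137) and ranged from -2.42 to 3.71. Its median was 0.889. Both sums moved together (r = 0.868, rho = 0.658, n = 137). FP tumors averaged 1.11 ± 1.02 (SD, n = 47) while PP tumors averaged 0.674 ± 1.17 (SD, n = 90), and the ranges overlapped. COTC021 averaged 0.711 ± 1.12 (SD, n = 65) and COTC022 0.922 ± 1.14 (SD, n = 72). No test was made of these means, and the ratio also rose with the mean level of the set (rho = 0.286, n = 137). With the mean of the log values of the fast genes minus that of the slow genes in place of the sums, the average over the 137 tumors was -0.0722.

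Variation between tumors differed among the paralog pairs. Over the 137 tumors with muscle signal, rho within a pair ran from 0.371 for TNNC2 with TNNC1 to 0.715 for TNNT3 with TNNT1. Over the same 137 tumors the SD of the log2 ratio was 1.38 for MYH1 plus MYH2 over MYH7, 1.28 for TNNC2 over TNNC1, 1.18 for MYL1 over MYL3, 1.06 for TNNI2 over TNNI1, 1.03 for MYLPF over MYL2 and 0.964 for TNNT3 over TNNT1. TNNC1 had the lowest r with the other 39 genes of all 6 slow genes, at 0.838, and is also the troponin C of the heart. By cluster, the mean log2 ratio of the heavy chains was 0.429 in FP and 0.0629 in PP. For MYL1 over MYL3 it was 1.34 and 1.02, and for MYLPF over MYL2 it was 0.671 and 0.699. The troponin pairs stood at -0.695 in FP and -1.13 in PP for TNNC2 over TNNC1, at 0.530 and -0.143 for TNNI2 over TNNI1, and at 0.467 and 0.175 for TNNT3 over TNNT1. The mean was thus higher in FP for 5 of the 6 pairs and lower for MYLPF over MYL2, and none of these differences was tested. Among these 137 tumors the ratio of fast to slow sums rose weakly with the level of the set (r = 0.16, rho = 0.286). That level, as mean log2(CPM + 2), averaged 3.07 over all 58 FP tumors, with an SD of 1.61. Over all 128 PP tumors the average was 2.82, with an SD of 1.5. The gap in level was small beside this spread and was not tested, and it covers tumors without muscle signal too. Without a test, the ratios are not read as a difference in fiber type between clusters. Whether the level had a part in them was not tested either.

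The highest tumors differed in fiber genes. In COTC022 tumor 68, MYH7 stood at 16520 CPM, against 2332 in COTC021 tumor 45 and 789 in COTC021 tumor 79. MYH1 ran the other way, with 44.1 CPM in COTC022 tumor 68, 2048 in COTC021 tumor 45 and 2026 in COTC021 tumor 79. MYH2 stood at 1592, 1925 and 3180 CPM in these 3 tumors. Their log2 ratios of fast to slow sums were -1.78, 1.19 and 2.27, so that COTC022 tumor 68 lay below the median of the 137 tumors and the others above it. COTC022 tumor 86, with 1.51% of counts, also lay below it, at -0.425.

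MYH3, the embryonic myosin heavy chain (chromosome 5, 35123684 to 35145374), separated these tumors in another way. It had 0 counts in 106 tumors and reached 1 CPM in 27 and 100 CPM in 10, all of the latter among the 20 tumors with the highest share of counts. It was highest in COTC022 tumor 86, at 1355 CPM, followed by 746 in COTC022 tumor 72, 700 in COTC021 tumor 87 and 530 in COTC021 tumor 79. COTC022 tumor 68, first by share of counts, was rank 17 for MYH3, at 9.21 CPM. Some other genes of developing muscle followed MYH3 across the 186 tumors. These were CHRNG, the fetal subunit of the acetylcholine receptor (r = 0.947 with MYH3), MYOG, the myogenic factor myogenin (r = 0.855), and MYH8, the perinatal myosin (r = 0.842). They also followed the mean of the whole set, at r = 0.749 for CHRNG, 0.690 for MYOG and 0.798 for MYH8. That of MYH3, itself part of the mean, was 0.818. CHRNG was at 0 counts in 147 tumors, MYOG in 153 and MYH8 in 111, so these correlations rest on few tumors. Whether these genes followed MYH3 apart from the level of the set was not tested. CHRNG reached 34.5 CPM in COTC022 tumor 37 and 24.6 in COTC022 tumor 86, and was at 0.337 in COTC022 tumor 68. The latter tumor had the highest level of MYF6, a myogenic factor of mature fibers, at 185.5 CPM.

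**Figure D4:**
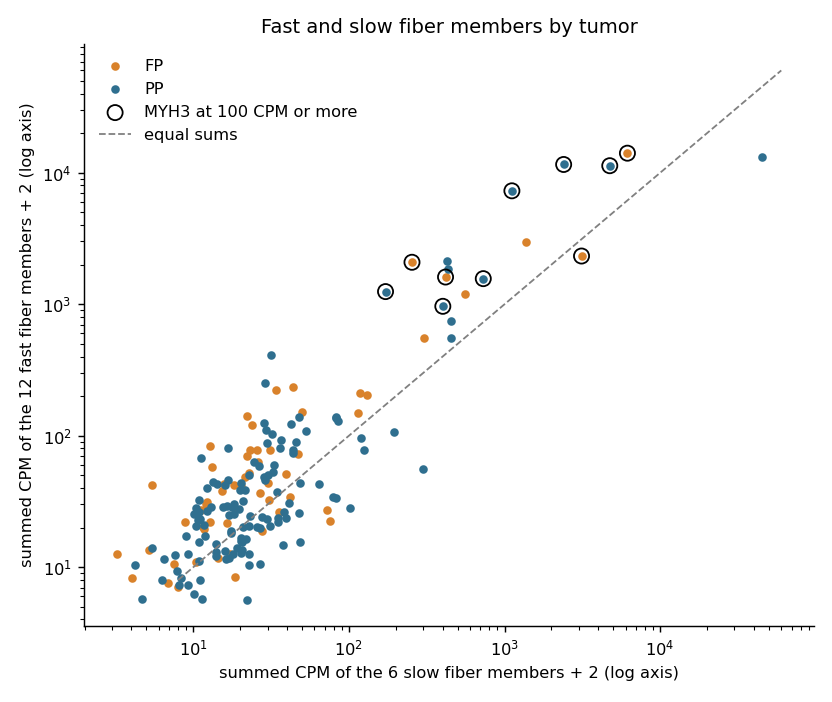
Summed CPM of the 12 fast genes against that of the 6 slow genes, each plus 2, on log axes, 1 point per tumor, with FP and PP in color, circles around the 10 tumors with MYH3 at 100 CPM or more and a dashed line where the sums are equal, a guide whose place depends on gene number and length. The highest tumor lies at the far right without a circle, with a log2 ratio of -1.78, and all 10 circled tumors lie among the 20 with the highest share of counts.

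Genes outside the set behaved like it. The 10 genes most like the mean of the 40, over 17168 genes with at least 10 counts in 10 tumors, were SLN (sarcolipin, r = 0.972), KLHL41 (0.971), TRDN (triadin, 0.956), LMOD2 and PPP1R3A (0.953 each), NRAP (0.951), LMOD3 (0.945), CAPN3 (0.936), SMTNL1 (0.932) and CKMT2 (0.931). Of a list of 50 other muscle genes, 49 were found, and r with the mean of the set was over 0.5 for 41 and over 0.8 for 26, while 1.37% and 0.652% of the 17168 genes passed those values. The 7 cardiac markers were mixed. NPPB was at 0 counts in 185 tumors, NPPA in 181, and MYBPC3 never exceeded 0.860 CPM. MYH6, the cardiac α-myosin heavy chain, was at 1 CPM or more in 8 tumors and highest in COTC022 tumor 68, at 28.3 CPM (r = 0.686 with the mean of the set). TNNI3, cardiac troponin I, was so in 57 tumors and also highest there, at 8.99 CPM (r = 0.496). TNNT2, cardiac troponin T (r = 0.741), which regenerating skeletal muscle also makes, reached 166 CPM in COTC022 tumor 72. NKX2-5, a cardiac transcription factor, was at 1 CPM or more in 33 tumors, up to 16.5 CPM, and had r = -0.142. Marker lists of other cell types differed in how far they followed the set. Their r with the mean of the set was 0.744 for myogenic factors and satellite cells, 0.702 for cardiac muscle, 0.288 for smooth muscle, 0.204 for endothelium, 0.134 for adipocytes, 0.0790 for leukocytes, 0.0424 for peripheral nerve, 0.0339 for osteoblasts, 0.0132 for tendon and -0.0985 for cartilage, and r with the log10 library total was -0.00811.

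The first comparison was between the GS-1 clusters. RYR1 was the gene of the set that was called by limma-voom with trial as a covariate and Benjamini-Hochberg adjustment over all genes. RYR1 ranged from 0.698 to 615 CPM in FP with a median of 4.01, and from 0.107 to 1942 CPM in PP with a median of 2.17. The ranges overlapped almost entirely. The log2 fold change was 0.87 (SE 0.34), or 1.83-fold higher in FP, with an adjusted p of 0.0337. Thus 1 of 30 tested genes was called, while 37.9% of all 13422 genes were called and 18.7% were called as higher in FP. No gene of the set passed a 3-fold change as well, which 2.35% of all genes did. At an unadjusted p under 0.05 there were 5 of 30, against 46.4% of all genes. Both shares of the set lay below those of all genes. The tested genes of the set also varied more between tumors, with a median SD of 1.83 against 0.542 over all genes kept. The lower shares are therefore not read as smaller differences between the clusters, and the part of the spread was not tested.

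The other genes with the smallest p-values did not pass. PYGM ranged from 0.0918 to 581 CPM in FP (median 3.16) and from 0 to 1628 in PP (median 2.00), with a log2 fold change of 0.82 (SE 0.35, limma-voom adjusted p = 0.0520). CA3 ranged from 0.158 to 2327 CPM in FP (median 102) and from 0.214 to 4499 in PP (median 174), with a log2 fold change of -0.80 (SE 0.37, adjusted p = 0.0714). CA3 had the lowest estimate of the set, on the side opposite to most. For DES (median 6.56 in FP and 5.27 in PP) the log2 fold change was 0.79 (SE 0.39, adjusted p = 0.10), and for TNNT3 (2.56 and 1.22) it was 1.03 (SE 0.51, adjusted p = 0.10). All 5 of these genes had overlapping ranges in the clusters. RYR1, PYGM, DES and TNNT3 belong to a signature that the study drew from these same tumors, as do ACTA1, CKM, MYBPC1, MYH1, MYH2, MYL1, MYL2, NEB and TNNT1, so the direction of these genes in any fit here is not independent evidence.

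By role, the median log2 fold change was 0.67 over 9 tested thick filament genes, 0.72 over 9 thin filament genes, 0.05 over 5 Z-disc genes, 0.61 over 2 calcium handling genes and 0.51 over 5 metabolic genes. Over all 30 it was 0.46, with 23 genes above 0, while over all 13422 genes it was -0.03, with 45.7% above 0. The genes of the set share tumors and move together, so counts of genes are not independent observations, here and in every fit below. The fast genes had a median of 0.54 (10 tested) and the slow genes 0.28 (5 tested). The 10 genes of the set that did not pass the filter, fitted without it, had estimates from 0.02 to 1.06, the highest for XIRP2 (adjusted p = 0.138). Of the 20 tested genes among the 50 other muscle genes, 5 were called, beside the 37.9% of all genes. TMOD4, PDLIM3, PDK4 and DMD were higher in FP by 1.19, 1.37, 1.35 and 0.69 on the log2 scale, and COX7A1 was lower in FP, with an estimate of -0.51. TMOD4, PDLIM3 and PDK4 also stand in the study's signature from these tumors.

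Markers of other cell types were tested in the same fit, gene by gene, and are read beside the 18.7% of all genes called as higher and the 19.3% called as lower in FP. All 5 leukocyte markers were called as higher in FP, and their estimates had a median of 2.20 on the log2 scale. The study formed the clusters from the expression of GS-1, an immune signature, in these same tumors. Higher leukocyte markers in FP were therefore largely set by the grouping and are not independent evidence. Of 7 smooth muscle and pericyte markers 4 were called as higher, and of 6 osteoblast markers 4 as lower, with medians of 0.94 and -0.97 over the lists. Of 4 cartilage markers 3 were called as lower, and of 4 endothelial markers 2 as higher. Of the 2 adipocyte markers tested, FABP4 was called as higher (3.26) and LPL was not called (-0.12). The summed level of the 6 osteoblast genes ranged from 458 to 114700 CPM, and that of the 7 smooth muscle genes from 50.8 to 13290 CPM. Their part in the differences of the muscle genes was not tested.

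A single tumor weighed heavily here. Without COTC022 tumor 68, limma-voom called 3 genes of the set (37.3% of all genes were called), RYR1 at 0.99, PYGM at 0.94 and DES at 0.91 on the log2 scale, with adjusted p-values of 0.0106, 0.0179 and 0.0451. edgeR's quasi-likelihood test called 1 gene, MYBPC2, in 186 tumors (log2 fold change 0.75, adjusted p = 0.0347, with 39.5% of all genes called). Without that tumor edgeR called 7, with 38.0% of all genes called, namely MYBPC2, RYR1, TTN, MYH7, DES, MB and MYL2. RYR1 had an adjusted p of 0.531 in edgeR with all tumors and 0.0179 without COTC022 tumor 68. DESeq2 called 7 (41.1% of all genes), TNNI2, MYH1, TNNT3, TNNT1, MYLPF, MYL2 and NEB, all higher in FP. RYR1 had a positive estimate in each fit of this comparison but was not called within either trial alone, with 0.95 in COTC021 (adjusted p = 0.128) and 0.79 in COTC022 (adjusted p = 0.273). The estimate was 0.74 within the 50 libraries (limma-voom adjusted p = 0.568) and 0.83 within the other 136 (adjusted p = 0.102). Over the whole set, the limma-voom median was -0.0855 within the 50 libraries, with 15 of 31 tested genes above 0. It was 0.631 within the other 136 libraries, with 26 of 30 above 0. In edgeR the median was 0.097 with all tumors (22 of 30 above 0) and 0.733 without COTC022 tumor 68 (28 of 30). Since the genes move together, these counts are not independent observations. Within COTC021 limma-voom called 1 gene of the set, MYBPC2 (20.7% of all genes called), and within COTC022 it called 0 (18.8%), with 1 of 30 at an unadjusted p under 0.05. Within the 136 libraries it called 2, MYBPC2 and TNNI2 (25.4% of all genes), and within the 50 it called 0 of 31 tested (10.0%), with 1 at an unadjusted p under 0.05. With sample quality weights it called 8, all higher in FP (41.5% of all genes), namely ACTA1, CKM, MYH2, NEB, PYGM, RYR1, TNNT3 and TPM2. Without the low-count filter it called 0 of 40 (21.6% of all genes), with 5 at an unadjusted p under 0.05.

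The second comparison was between the trials, with the cluster as a covariate. None of the 30 genes was called by limma-voom, where 0.0149% of all genes (2 of 13422) were. At an unadjusted p under 0.05 there was 1 of 30, CA3, against 10.8% of all genes. CA3 ranged from 0.158 to 2866 CPM in COTC021 (median 115) and from 0.506 to 4499 in COTC022 (median 173), with a log2 fold change of 0.81 (SE 0.34, limma-voom adjusted p = 0.374). The estimates for ACTN2, TNNI1, MYLPF and TNNC1 were 0.73, 0.60, 0.80 and 0.48, with adjusted p-values of 0.479 to 0.596. edgeR's test called 4 genes, TNNC1, MYL2, MYH7 and TPM2, as higher in COTC022 by 2.11, 2.89, 2.34 and 0.83 on the log2 scale (0.82% of all genes called). Without COTC022 tumor 68 it called none of the set (0.61% of all genes), and the median estimate over the 30 genes went from 1.08 to -0.06. At an unadjusted p under 0.05 edgeR had 18 of 30 with all tumors (13.8% of all genes) and 1 of 30 without COTC022 tumor 68 (13.1%). DESeq2 called 7 genes of the set between the trials (0.857% of all genes) and had 16 of 30 at an unadjusted p under 0.05 (14.4%). Of the 4 genes edgeR called, TNNC1, MYL2 and MYH7 are slow fiber genes. All 4 had their highest level in COTC022 tumor 68, but so did most genes of the set, so this does not set them apart.

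**Figure D5:**
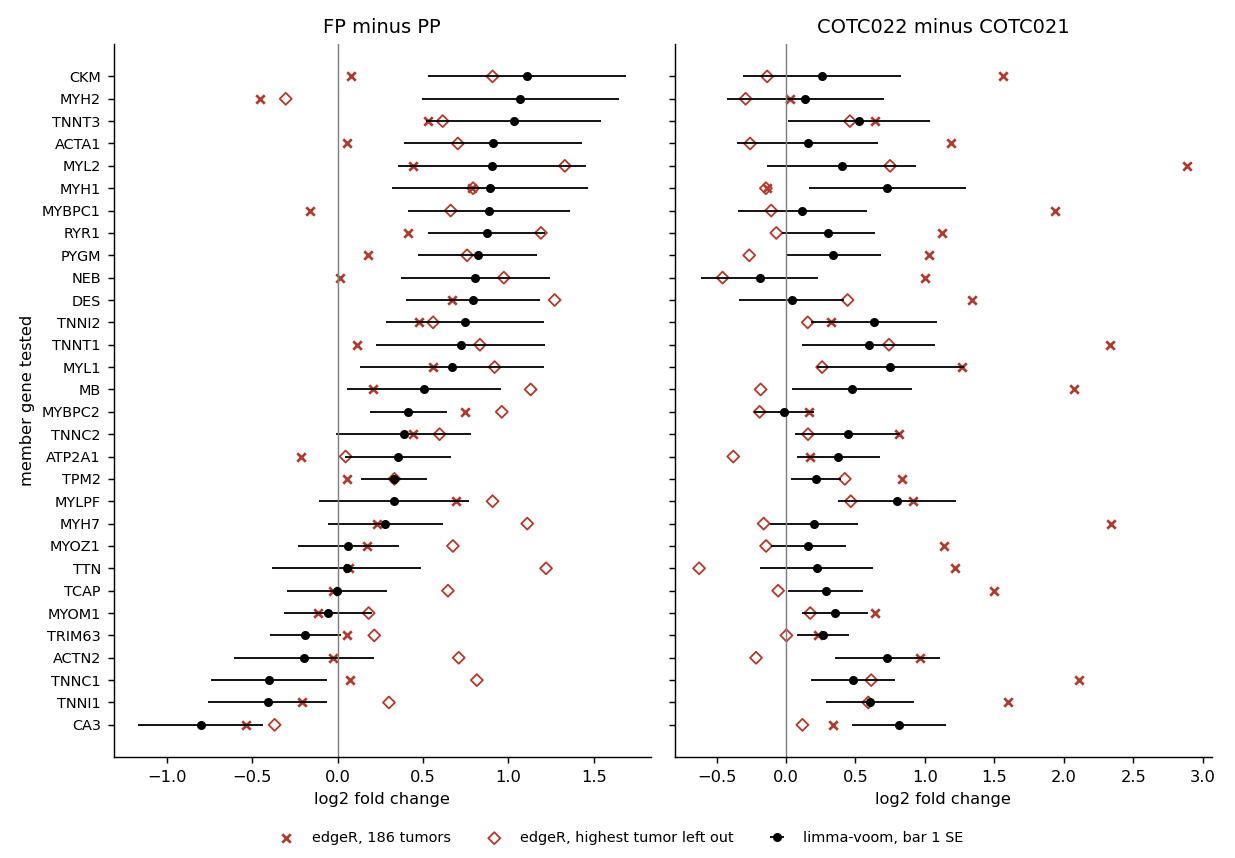
Log2 fold changes of the 30 tested genes between the GS-1 clusters (left) and between the trials (right), as black points with bars of 1 SE from limma-voom, red crosses from edgeR with 186 tumors and open red diamonds from edgeR with 185 tumors, COTC022 tumor 68 left out. On the right, MYL2 goes from 2.89 with all tumors to 0.75 without that tumor, and the limma-voom points lie between -0.19 and 0.81.

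Whether the difference between clusters differed between the trials was tested with an interaction term. limma-voom called 0 of 30 genes and 0% of all 13422 genes, with 0 of 30 at an unadjusted p under 0.05 against 2.96% of all genes. The smallest p was that of MYBPC2 (estimate -0.84, SE 0.45, p = 0.0644 before adjustment in limma-voom). edgeR called 2, MYOZ1 at -3.82 and MYH7 at -4.79 (0.0298% of all genes), and none of the set without COTC022 tumor 68 (0.00744% of all genes). At an unadjusted p under 0.05 it had 23 of 30 with all tumors (5.64% of all genes) and 7 of 30 without that tumor (5.35%).

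For DFI, with 143 events, a Cox model per gene stratified by trial called none of the 30 genes after Benjamini-Hochberg adjustment over all genes, while it called 9.75% of all genes. At an unadjusted p under 0.05 there were 0 of 30, against 27.7% of all genes. The smallest p was that of TNNI1, with a hazard ratio of 1.07 per log2 unit (95% interval 0.969 to 1.19, survival package, adjusted p = 0.376). CA3 followed at 1.06 (0.973 to 1.15, adjusted p = 0.392), TCAP at 1.06 (0.953 to 1.19), ATP2A1 at 1.05 (0.941 to 1.18) and MYOZ1 at 1.06 (0.927 to 1.21). The coefficients of the 30 genes lay between -0.0322 and 0.0719 per log2 unit, with a median of 0.0148 against -0.00739 over all genes. All of the intervals named held a ratio of 1.

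For OSv, with 124 events, none of the 30 genes was called either, while 0.79% of all genes were. At an unadjusted p under 0.05 there was 1 of 30, against 20.3% of all genes. That gene was TNNI1, slow troponin I, with a hazard ratio of 1.13 per log2 unit (1.01 to 1.25, adjusted p = 0.182). TNNI1 ranged from 0 to 1353 CPM with a median of 2.20 over the 186 tumors. TCAP was at 1.10 (0.978 to 1.23), MYOZ1 at 1.11 (0.971 to 1.27), MYBPC2 at 1.13 (0.953 to 1.33) and TNNC1 at 1.07 (0.970 to 1.18). Of the coefficients 28 of 30 were above 0, with a median of 0.0419 against -0.0170 over all genes. The genes share tumors and move together, so this is not 30 independent observations. CASQ1, which did not pass the filter, had 1.13 (1.01 to 1.26, adjusted p = 0.211) when fitted without it.

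The library groups moved these estimates. Within the 136 libraries with the common name style, 12 of 30 genes had an unadjusted p under 0.05 against DFI (12.3% of all genes) and 9 of 30 against OSv (9.64% of all genes), all with higher hazard at a higher level, and none was called after adjustment. Within the 50 other libraries, with 45 DFI and 38 OSv events, 0 of 30 had one for either endpoint, against 12.2% and 11.5% of all genes. With the library group as a further stratum over all 186 tumors, 3 of 30 genes had an unadjusted p under 0.05 for DFI (20.8% of all genes) and 3 for OSv (14.8%). The median coefficient in that fit was 0.0721 for DFI, with 30 of 30 above 0, and 0.0815 for OSv, with 29 of 30, in place of 0.0148 and 0.0419. Since the genes move together, these counts are not 30 independent observations. The difference between the library groups was not tested.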

How the data were processed

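Values in the deposited table are expected counts per gene that the authors made with RSEM 1.3.1 after trimming and alignment with STAR 2.7.0f to build GSD_1.0, from stranded mRNA libraries, without normalization. Expected counts were rounded to whole numbers, since 3.07% were not whole. Of 198 columns, 186 matched a sample and a dog listed with cluster, DFI and OSv in the study's supplementary data, and 12 were not used here. Gene positions come from the RefSeq table of the same assembly. CPM is counts over the library total.

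The low-count filter was filterByExpr of edgeR 4.0.16 with a minimum count of 10, a minimum proportion of 0.5 and 5 as the size of a large group, and 13422 genes passed it. TMM-normalized counts were fitted with limma 3.58.1 voom (trial plus cluster) in R 4.3.3. edgeR's quasi-likelihood test and DESeq2 1.42.0 were alternatives. Cox models (survival 3.8.3, two-sided Wald test) used log2(CPM + 2), stratified by trial, with Benjamini-Hochberg adjustment over all genes tested. A gene was called at an adjusted p under 0.05. The limma, edgeR and Cox scripts were tested on simulated data. Library totals set the precision, with 10 counts equal to about 1 CPM in the median library.

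Replicate numbers only name tumors in accession order. The 40 genes, the lists and the comparisons were chosen with earlier results of these data known. Genes named in the text are the members, with fuller values for fast and slow paralogs and for the 5 smallest p-values of each comparison, marker and muscle lists, and the 10 genes most like the set. Single tumors, the osteoblast markers set beside CA3, the genes of developing muscle and the tumor left out were chosen after the values were seen. GS-1 clusters, DFI and OSv are the study's listing, not sample labels. Each tumor is a separate dog.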

Additional observations from a re-analysis of the deposited data

How the results depend on the processing

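There were 318 values computed under an alternative setting. Of those for whole comparisons, 52 stayed near the main value, 15 moved and 1 reversed. For the trials, the interaction, DFI and OSv the main number called was 0, so staying near it meant that none was called. Of those for single genes, 231 kept their direction and side of the threshold, 7 no longer passed it, 9 newly passed it and 3 reversed. Only RYR1 among the single genes was called in a main fit, so for the others keeping their side meant staying uncalled. Genes of the set called between the GS-1 clusters numbered 1 (37.9% of all genes called). They numbered 0 without the low-count filter (21.6%), within the 50 libraries (10.0%) and within COTC022 (18.8%), 2 without the trial term (37.9%) and within the other 136 libraries (25.4%), 3 without the tumor with the highest share of counts (37.3%), 7 with DESeq2 (41.1%) and with edgeR without that tumor (38.0%), and 8 with sample quality weights (41.5%). Between the trials the number went from 0 to 4 with edgeR and 7 with DESeq2, and for the interaction from 0 to 2 with edgeR. The counts for DFI and OSv stayed at 0 in every alternative run. The share of tumors with muscle signal went from 73.7% to 84.9% at 0.5 CPM, 24.7% at 5 CPM and 42.5% with 75% of the genes required. The fast to slow ratio went from 0.822 to -0.0722 with the mean of logs. This is the 1 value counted as reversed, by its sign alone. Since the zero of the ratio has no meaning, it is not read as a change of direction. Single genes reversed in 3 cases, ACTN2 between trials (-0.22 with edgeR without the highest tumor) and CA3 against DFI (-0.0386 within COTC022 and -0.0301 within the 50 libraries). The cause was not tested. Settings without the highest tumor were added after seeing the data. No paired analysis was possible because replicate numbers follow accession order and pair no tumors. At the median total of 10797162 counts, levels under 1 CPM rest on about 10 counts or fewer.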
